A study of Mus musculus with 4 samples.

Results

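The ADAM family of sperm surface proteins is described here by 9 of its genes, Adam1a, Adam2, Adam3, Adam5, Adam18, Adam24, Adam29, Adam30 and Adam32, in dissociated mouse testis. The genes were chosen by name, and all 9 are among the 18419 genes of the deposited table. The cells came from ICR males that were about 3 weeks old when treatment began, and each of 4 groups is 1 library made by droplet single-cell RNA sequencing of 3′ ends. A0 mice received water, A10 mice received alginate oligosaccharides (AOS, short seaweed sugars) by mouth at 10 mg/kg body weight, B0 mice received busulfan and then water, and BA10 mice received busulfan and then the same dose of AOS. Busulfan is an alkylating anti-cancer drug that kills dividing germ cells, and it was given as a single injection on the day before dosing began. Testis cells of several mice were combined in each library, and the tubules were washed to remove spermatozoa. With 1 library per group there was no replicate of any group and no test between groups, so every interval below is a 95% interval of counting error only, and a difference between libraries cannot be told apart from a difference between the mice or the cell preparations.

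ADAM proteins are membrane-anchored and carry a prodomain, a metalloprotease-like domain, a disintegrin domain and a cysteine-rich domain. In the mouse many of them are made mainly by male germ cells, carried to the sperm surface and cut during passage through the epididymis. ADAM2 (fertilin beta) pairs with ADAM1A or ADAM1B (fertilin alpha), and sperm that lack ADAM2 or ADAM3 (cyritestin) pass poorly from the uterus into the oviduct and bind poorly to the egg coat.

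The 9 genes fall into enzyme-like and non-enzyme members, and the coding bases of the zinc-binding site of the metalloprotease domain show it. These bases are shown because catalytic ADAMs need this site, and a reader can see from them which members keep it. Coding sequences were read from the GENCODE M21 transcripts on mouse build GRCm38. Each line runs 5′ to 3′ on the coding strand over 39 bases, with the codons in capitals where the encoded residue at 1 of the 5 zinc-site positions (histidine, glutamate, histidine, glycine and histidine) is kept. Adam24 served as the guide for aligning members without the full site.
Adam1a, chr5:121520086-121520124, minus strand: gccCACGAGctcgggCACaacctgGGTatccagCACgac
Adam24, chr8:40680515-40680553, plus strand: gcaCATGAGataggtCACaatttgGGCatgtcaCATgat
Adam30, chr3:98161858-98161896, plus strand: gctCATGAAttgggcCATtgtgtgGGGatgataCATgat
Adam29, chr8:55872371-55872409, minus strand: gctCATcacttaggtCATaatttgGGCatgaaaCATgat
Adam2, chr14:66053838-66053876, minus strand: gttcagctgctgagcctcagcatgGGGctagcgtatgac
Adam3, chr8:24707415-24707453, minus strand: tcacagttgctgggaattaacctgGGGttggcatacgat
Adam5, chr8:24806446-24806484, minus strand: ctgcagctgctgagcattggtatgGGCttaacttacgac
Adam18, chr8:24647845-24647883, minus strand: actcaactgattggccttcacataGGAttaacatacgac
Adam32, chr8:24901498-24901536, minus strand: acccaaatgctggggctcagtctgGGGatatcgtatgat

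All of these stretches lie within a single coding exon. Adam1a, Adam24 and Adam30 kept all 5 positions, Adam29 kept 4 and lacked the glutamate that does the catalysis, and the remaining 5 members kept only the glycine. The gene structures divided in a related way. Adam1a, Adam24, Adam29 and Adam30 have 1 coding exon each, whereas Adam2 has 20, Adam3 and Adam5 have 21, Adam18 has 19 and Adam32 has 22. Adam18, Adam3, Adam5 and Adam32 are neighbours on the minus strand between chr8:24602246 and chr8:24948804. In the annotation Adam1a, whose coding sequence holds 2373 bases, overlaps Mapkapk5 on the same strand and Tmem116 on the other, so UMIs of these genes could have been exchanged where the counting did not separate them. Adam24 also belongs to a group of similar mouse testis genes, the testases, among which reads of near-identical stretches could be lost or shared, and the same holds for Adam1a and Adam1b.

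The library facts that touch these genes were as follows. The table held 8941 and 9682 cells for the groups without busulfan (A0, then A10) and 4659 and 3778 for those with it (B0, then BA10), with, in that order, 150812974, 143714595, 25323535 and 91304225 unique molecular identifiers (UMIs, each 1 captured RNA molecule). Median UMIs per cell were 12685, 10948, 4214 and 17989, and the lowest cells kept in each library had 7687, 6716, 2985 and 9013, so the libraries entered with different lower limits. Pairs of libraries shared between 31 and 135 cell barcodes. Levels are given as CPM, the UMIs of a gene per 1000000 UMIs of the library, class or cluster, and because 3′ counting takes 1 tag per molecule they do not scale with transcript length. In CPM of a whole library, fewer cells of a type and less RNA per cell cannot be told apart. Cells were clustered here with no ADAM gene among the variable genes, and classes were called SPC-like (spermatocyte), ST-like (spermatid), SPG-like (spermatogonium) or somatic-like from fixed markers. The names were rebuilt, and the class shares differ from those of the study. The study reports more spermatocytes than spermatids in A0, the reverse of the order found here. It also reports larger shares of spermatogonia and spermatids in BA10. Here 38.9% of A0 cells were SPC-like and 58.2% were ST-like. Only 0.318% of BA10 cells were SPG-like and 0.847% were ST-like. The cause of the difference was not tested, and all class comparisons below rest on the rebuilt names. A0 held 3479 SPC-like and 5203 ST-like cells and A10 held 3694 and 5764. B0 held 211 SPC-like, 249 SPG-like and 3625 somatic-like cells and 1 ST-like cell, and 573 cells (12.3%) were left unnamed. BA10 held 2888 SPC-like, 197 somatic-like and 32 ST-like cells, and 649 cells (17.2%) were left unnamed. The ST-like count of BA10 rose to 137 at clustering resolution 0.5, 134 at resolution 2 and 187 with 1000 variable genes. The spermatid markers moved with this, since Prm1, which encodes protamine 1, stood at 12309 and 16635 CPM in A0 and A10 and at 35 and 360 in B0 and BA10.

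In untreated testis the 9 genes covered a 13.5-fold range and together made up 2274 CPM. Adam5 was the most abundant in A0 at 692 CPM (interval 688 to 697), followed by Adam3 at 575 (572 to 579) and Adam32 at 399 (396 to 402). Adam2 followed at 220 (217 to 222) and Adam1a at 122 (120 to 124). These first 5 levels were separate from one another by counting error. Adam30 at 80.7 (79.3 to 82.2) and Adam18 at 79.8 (78.4 to 81.3) did not differ beyond their intervals, and the lowest members were Adam29 at 54.2 (53 to 55.4) and Adam24 at 51.4 (50.3 to 52.6). The order was the same in A10 except that Adam18 stood just above Adam30, again within their intervals. In both B0 and BA10 Adam1a dropped below Adam18 and Adam30, and the range widened to 25.1-fold and 71.3-fold.

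**Figure D1:**
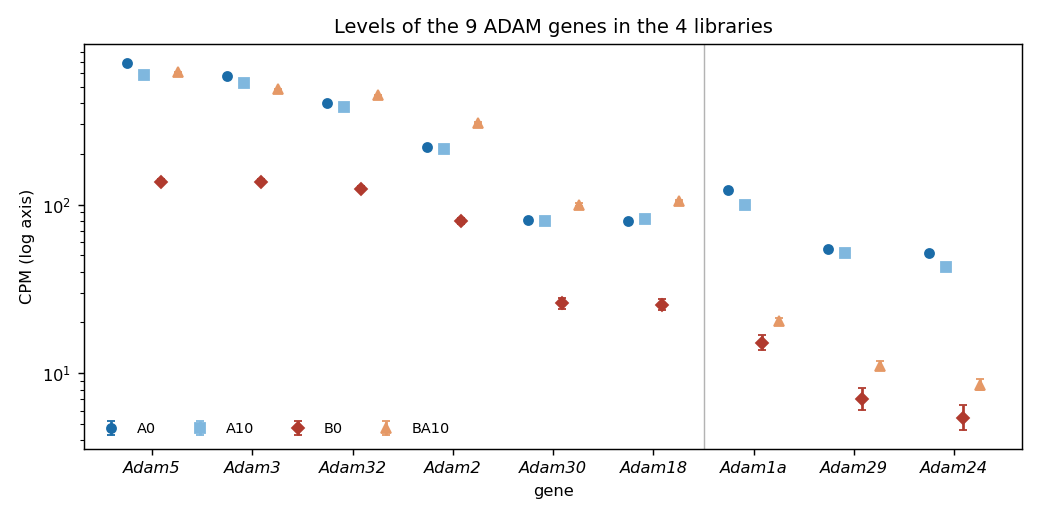
CPM of each gene (log axis) in the 4 libraries, with 95% counting intervals, most of them smaller than the symbols. The vertical line divides the 6 genes that were higher in SPC-like cells of A0 from the 3 that were higher in ST-like cells. BA10 lies close to A0 for the first 6 and near B0 for Adam1a, Adam29 and Adam24.

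The members differed in level between germ cell classes. In A0, 6 were higher in SPC-like cells, Adam3 only slightly, and 3, Adam1a, Adam24 and Adam29, were higher in ST-like cells. The share of all genes higher in each class by any amount was not counted. Adam2 stood at 369 CPM in SPC-like and 109 in ST-like cells, a ratio of 0.295 (0.288 to 0.303). Adam18, another non-enzyme member, stood at 116 and 54 (ratio 0.464), and Adam30, the only enzyme-like member of this group, at 120 and 53 (ratio 0.441). Adam32 was less one-sided at 505 and 326 (ratio 0.646), as was Adam5 at 799 and 621 (ratio 0.777). Adam3 was nearly even at 601 and 567, a ratio of 0.943 (0.93 to 0.956), and ST-like cells held 54.5% of its UMIs. Hence 3 of the 9 members (Adam2, Adam18 and Adam30) were at least 2-fold higher in SPC-like cells, where 42.5% of genes were. That share includes genes on which the cells were clustered, while the ADAM genes were kept out of the clustering.

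The 3 spermatid-side members were all past 2-fold in the main clustering. Adam29 had 8.97 CPM in SPC-like and 89.1 in ST-like cells of A0, a ratio of 9.94 (9.12 to 10.8). Adam1a had 35.4 and 189, a ratio of 5.32 (5.09 to 5.57), and Adam24, known as testase 1, had 19.9 and 75.8, a ratio of 3.81 (3.59 to 4.05). These 3 of 9 were at least 2-fold higher in ST-like cells, where 23.4% of genes were. The size of these ratios depended on the clustering. With 1000 variable genes the log2 ratios of Adam29, Adam1a and Adam24 in A0 were 1.76, 1.46 and 0.90, the last under 2-fold, against 3.31, 2.41 and 1.93 in the main clustering, and without called doublets they were 2.85, 1.97 and 1.51. Adam2 was at -1.81 and -2.10 under these settings and at -1.76 in the main clustering. In the main clustering ST-like cells held 91% of the Adam29 UMIs of A0, 85.6% of those of Adam1a and 81.5% of those of Adam24, and held 58.2% of its cells. A10 gave the same 6 and 3 genes, with ratios of 8.88, 5.85 and 4.52 for Adam29, Adam1a and Adam24. The RNAs of the fertilin partners were thus higher in different classes, Adam2 in SPC-like and Adam1a in ST-like cells. Their ranges overlapped, since ST-like cluster 5 of A0 had 219 CPM of Adam2 and 201 of Adam1a. Adam1b, the other alpha partner of Adam2 and no member here, had 205 CPM in SPC-like and 63.4 in ST-like cells, a ratio of 0.309 (0.299 to 0.319).

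Detection per cell was compared next. In SPC-like cells of A0, 97.8% had an Adam2 UMI and 11.2% an Adam29 UMI, while in ST-like cells the shares were 62.8% and 56.4%. Somatic-like cells of B0, which should lack these genes, gave 2.54% and 0.303% at a median of 4035 UMIs per cell, against medians of 11924 and 12964 in the SPC-like and ST-like cells of A0. In BA10, which held more germ cell RNA, somatic-like cells gave 69.5% and 6.09% at a median of 12886 UMIs. Whether these BA10 cells were somatic was not tested. Profiles over 7398 genes without the ADAM family were compared with the clusters of A0. The macrophage-like and Leydig-like clusters of BA10 (14 and 16) had Pearson r of 0.924 and 0.884 with SPC-like clusters of A0. In B0 the value for cluster 14 was 0.658. Germ cell RNA in a cell raises this r, so it cannot decide what the cells were. After each cell was thinned to 2985 UMIs, the shares were 64.8% and 2.64% in SPC-like cells and 24.5% and 20.7% in ST-like cells, those of the somatic-like cells of B0 were 1.66% and 0.138%, and those of BA10 were 37.1% and 1.02%. Since somatic-like cells of B0 held such UMIs too, a UMI in a cell does not by itself show expression in it. An Adam5 UMI was found in 99.7% of SPC-like and 99.1% of ST-like cells before thinning and in 90.3% and 81.5% after it, against 81.7% and 53.3% of the somatic-like cells of BA10 and 3.5% and 2.26% of those of B0. Adam3 was detected in fewer SPC-like than ST-like cells, 96.8% and 99.4% before thinning and 79.5% and 80.8% after it, although its CPM was higher in SPC-like cells.

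Within the germ cells of A0, 13 clusters of at least 50 cells were put in order by the ratio of summed spermatid to summed spermatocyte markers. Adam2 was already at 361 CPM in the first cluster in this order (cluster 4), peaked at 446 in the second and ended at 20.8 in the last. Adam18 and Adam30 began lower, at 61.2 and 62.3 CPM, reached 137 and 143 by positions 2 and 3, and ended at 9.3 and 10.3. Adam3 came later, from 221 CPM in the first cluster to 739 in the fourth, and stayed at 447 in the last. Adam5 changed least, between 848 and 331 CPM, a 2.56-fold range, against 21.4-fold for Adam2.

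The late members were low at the start of the order. In the first cluster Adam1a had 13.7 CPM, Adam24 had 5.01 and Adam29 had 5.77, and in the second they had their lowest levels, 5.09, 1.7 and 2.46. In the fourth, which was SPC-like, Adam1a had reached 96.7 and Adam24 60.1 while Adam29 was at 15.9. All 3 peaked in the seventh (cluster 6), at 234, 128 and 172 CPM. Beyond it they parted, since in the last cluster Adam1a still had 159 CPM and Adam24 and Adam29 had 10.4 and 9.9. The order of the clusters is not a time course, and 3 clusters were out of pattern. Those at positions 6, 8 and 9 (clusters 1, 12 and 2) held 40.2%, 34.5% and 51.9% cells called doublets in A0, against 1.08% to 14.6% elsewhere, and the part of doublets in their levels was not tested.

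**Figure D2:**
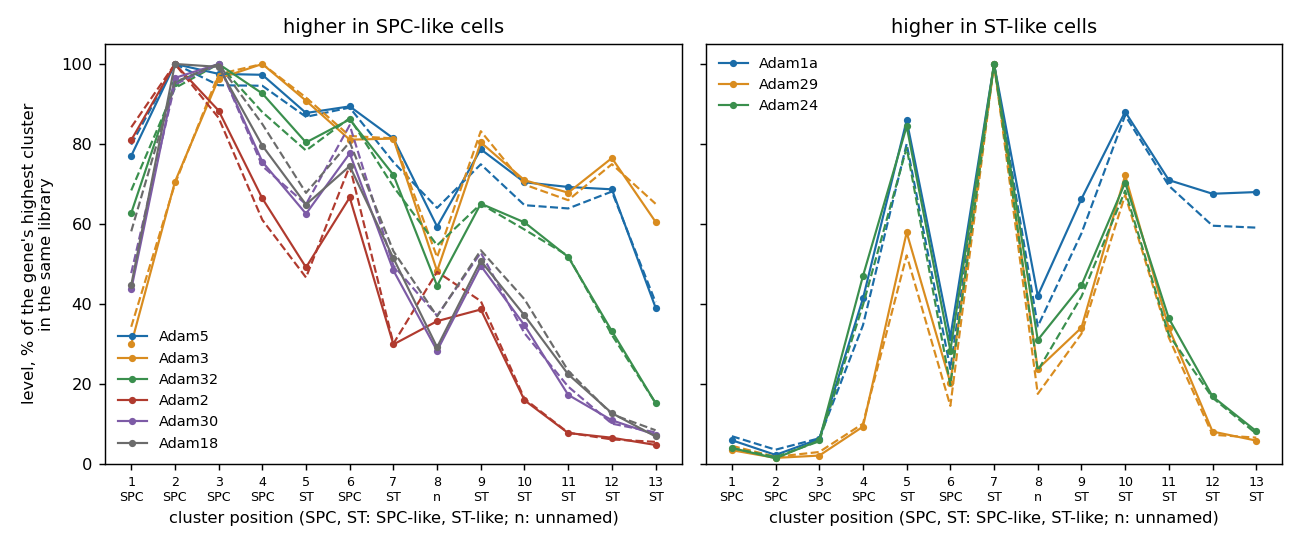
Level of each gene in the 13 germ cell clusters of A0 (solid, with points) and A10 (dashed), as a percentage of the gene's highest cluster in the same library, with clusters ordered by the ratio of spermatid to spermatocyte markers. Genes on the left are highest at positions 2 to 4 and those on the right at position 7. Positions 6, 8 and 9 are the clusters rich in called doublets.

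Correlation across these 13 clusters, which share libraries and depth and are only a description, put Adam18 and Adam30 nearest to each other (Pearson r of log2(CPM + 1) of 0.995 in A0 and 0.994 in A10). Adam24 and Adam29 were the closest pair of the late members, at 0.936 in A0, and Adam1a and Adam2 were opposed, at -0.649. Among 7416 genes of at least 20 CPM in their highest cluster, the genes most like Adam1a were Zfp474, Fam81b and 1700034O15Rik, and those most like Adam2 were Slc39a6, Aldh1a2 and Arhgef33. The most similar genes to Adam24 were Kcne3, Ttc39a and Pdilt, the last of which encodes a testis disulfide isomerase that is needed for ADAM3 to reach the sperm surface. Adam29 was most like Rbm43, 4930488N24Rik and Hsfy2. For Adam18 the first was Adam30, followed by Gnb1l and Ide, and for Adam30 they were D2Wsu81e, Gnb1l and Syce1l. Adam3 had Dgka, Papolb and Atoh8, Adam5 had Prdx6b, Cmtm2b and Prss47, and Adam32 had 4921524L21Rik, Hsbp1 and Tex40. The lowest of these correlations was 0.958 in A0.

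AOS without busulfan was set against water to ask whether AOS alone moved these genes. All differences were under 2-fold. A10 gave 585 CPM of Adam5 (581 to 589), 523 of Adam3, 380 of Adam32 and 215 of Adam2, and 99.5 of Adam1a (97.9 to 101). For the low members A10 had 82.1 of Adam18, 80.3 of Adam30, 51.8 of Adam29 and 42.5 of Adam24. None of the 9 was past 2-fold, where 0.0739% of genes were at least 2-fold lower and 0.0493% at least 2-fold higher among those of at least 5 CPM on average. The largest differences were in Adam1a, with a ratio to A0 of 0.817 (0.799 to 0.835), and in Adam24 and Adam5, with ratios of 0.826 and 0.845. Adam30 had a ratio of 0.995 and an interval of 0.97 to 1.02. Within classes the ratios lay between 0.732 and 1.09 in SPC-like and 0.826 and 1.03 in ST-like cells.

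Busulfan was set against water to ask how far these genes fell with the loss of germ cells. In B0 all 9 were at least 2-fold lower than in A0, where 22.5% of genes were lower and 42.7% were higher by that much. Adam5 stood at 137 CPM (132 to 142), Adam3 at 137 and Adam32 at 124. Adam2 was at 79.6, Adam30 at 26 and Adam18 at 25.5. Adam1a was at 15.2 (13.8 to 16.8), Adam29 at 7.07 and Adam24 at 5.45, from 138 UMIs. The ratios to A0 ran from 0.106 (0.0889 to 0.125) for Adam24 to 0.363 (0.347 to 0.379) for Adam2, and the 3 spermatid-side members had the 3 lowest. The median log2 ratio of the 9 was -2.07, and that of all genes tested was 0.50. As a mean over cells, in which each cell counts alike, the fall was deeper, with a median of -3.18 and with Adam2 at -2.47 and Adam24 at -4.33.

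Cell content moved with this fall. Leydig cell markers rose in the same comparison, as Insl3 went from 0.935 CPM in A0 to 6638 in B0, and the 5 Leydig markers on the list lay between 743 and 6638 CPM in B0 and between 0.278 and 4.06 in A0 and A10. The part of this in the fall of the members was not tested. Somatic-like cells, 77.8% of B0, had 15.4 CPM of Adam5 and 9.44 of Adam2, and 3.5% of them had an Adam5 UMI at a median of 4035 UMIs per cell. Most UMIs of the members came instead from cluster 13, where spermatocyte markers scored highest and spermatid markers second. Its leading genes included the Sertoli genes Cst12, Cst9, Rhox8 and Aard, and also Hba-a1, so that it was left without a name. The profile of its B0 cells had a Pearson r of 0.92 with SPC-like cluster 9 of A0. The 507 cells of cluster 13 were 10.9% of B0 and held 75.6% of its Adam5 UMIs, 66.4% of those of Adam2 and 89.4% of those of Adam29. The part of free RNA, doublets and mixed droplets in this cluster was not tested. When only cells of at least 9013 UMIs were kept in all libraries, 448 cells of B0 were left and 3 of 9 members, Adam1a, Adam24 and Adam29, were at least 2-fold lower, where 11.3% of genes were. Adam2 then had 227 CPM in B0 and 222 in A0. The ratios of the 3 were then 0.385 for Adam1a, 0.324 for Adam24 and 0.41 for Adam29, and those of the other 6 ran from 0.569 to 1.02. The limit did not keep like cells in each library. In B0 the median was 9706 UMIs in unnamed cells, against 4035 in somatic-like and 5027 in SPC-like cells. It therefore favoured the unnamed cells of B0 and is no comparison of like cells at equal depth. The size of the fall thus depended on which cells entered for all 9.

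In the small SPC-like class of B0, Adam2 had 222 CPM there, a ratio of 0.602 (0.544 to 0.665) to the SPC-like class of A0, while Adam3 had 90.9 and a ratio of 0.151 (0.129 to 0.176). Adam5 had 244 CPM, Adam32 167, Adam18 34 and Adam30 25.1, with ratios from 0.209 to 0.33. Adam1a rested on 7 UMIs, Adam29 on 4 and Adam24 on 3. These SPC-like cells were mostly of cluster 21 (167 of 211), which in A0 held 1 cell, but the other 44 cells carried most of the UMIs. They held 290 of the 399 Adam2 UMIs, 388 of the 437 of Adam5 and 152 of the 163 of Adam3, at 326, 436 and 171 CPM. In cluster 21 of B0 Adam2 was at 121 CPM, a ratio of 0.334 (0.273 to 0.404) to its most similar A0 cluster (cluster 4), Adam5 at 54.2, Adam32 at 27.7 and Adam3 at 12.2, and no UMI of Adam1a, Adam24 or Adam29 was found, which allows up to 3.32 CPM each by a limit of 3 counts and up to 4.08 by the exact 95% interval.

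BA10 was set against B0 to ask what differed with AOS after busulfan. The 6 spermatocyte-side members were 3.52-fold to 4.46-fold higher in BA10, and the 3 spermatid-side members were at most 1.57-fold higher when UMIs were summed. This contrast depended on the weighting of cells. As a mean over cells the log2 ratios of Adam1a, Adam24 and Adam29 were 1.84, 2.08 and 2.04 and 9 of 9 members were at least 2-fold higher, and relative to the median of all genes 8 of 9 were. The share of all genes past 2-fold was not computed under either setting, so these counts have no background. In summed UMIs BA10 had 610 CPM of Adam5 (605 to 615), 482 of Adam3 and 444 of Adam32. Adam2 was at 306 (302 to 310), Adam18 at 105 and Adam30 at 100. Adam1a was at 20.3 (19.3 to 21.2), Adam29 at 11.1 and Adam24 at 8.56. So 6 of 9 were at least 2-fold higher, where 18.6% of genes were, and 39.6% were at least 2-fold lower. The largest ratio was that of Adam5, at 4.46 (4.31 to 4.62), and the smallest that of Adam1a, at 1.33 (1.19 to 1.49). The median log2 ratio was 1.84 over the members and -0.39 over all genes tested. SPC-like cells made up 4.53% of B0 and 76.4% of BA10. Within them Adam2 was closest between the libraries, at 1.44-fold (1.31 to 1.6) higher in BA10, Adam5 was 2.6-fold higher and Adam3 was 5.35-fold higher (4.59 to 6.28), although different clusters held most of the class in each.

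The same limit of 9013 UMIs changed this comparison. It kept all 3778 cells of BA10 but only 448 of B0, where it favoured the unnamed cells, so like cells were not compared. None of the 9 was then at least 2-fold higher, where 1.43% of genes were, and Adam1a and Adam29 were at least 2-fold lower, where 16.4% of genes were. Adam5 had a ratio of 1.54 (1.48 to 1.6), Adam2 of 1.35 and Adam3 of 1.22, and those of Adam1a, Adam29 and Adam24 were 0.43, 0.483 and 0.502. Somatic-like cells of BA10 were not free of the members either. Of these cells, 81.7% had an Adam5 UMI (53.3% after thinning), and their Adam5 level was 364 CPM, against 15.4 in B0. The part of free RNA, of doublets and of mixed clusters in these cells was not tested.

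**Figure D3:**
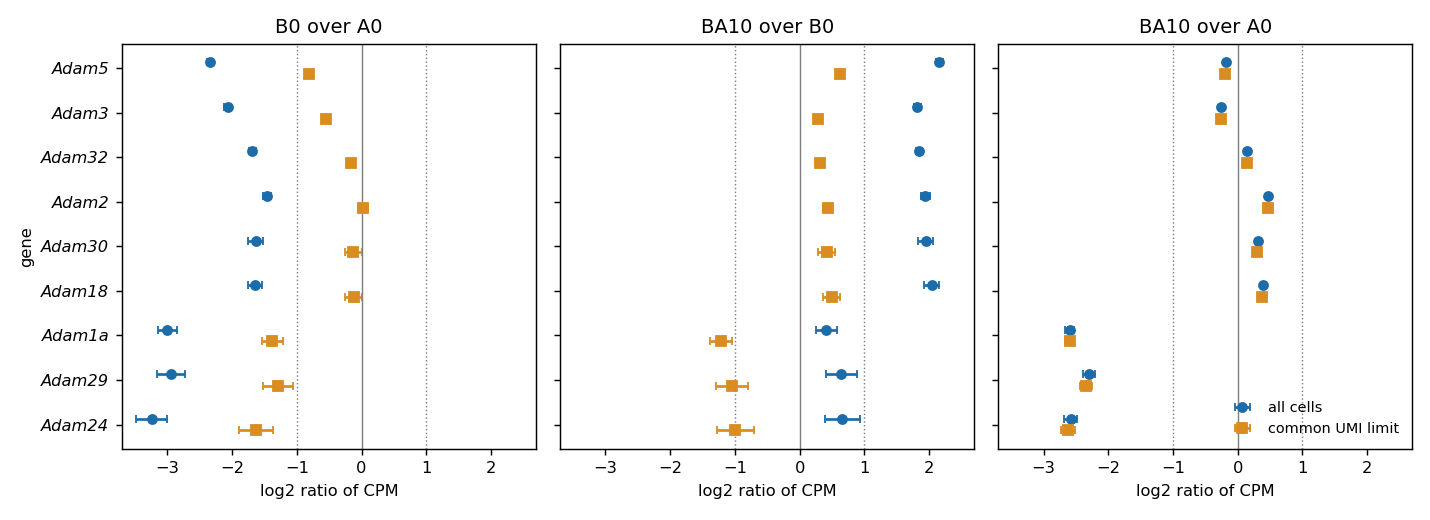
Log2 ratio of CPM of each gene between libraries for all cells (circles) and for cells of at least 9013 UMIs (squares), with 95% counting intervals. Dotted lines mark 2-fold. The B0 over A0 and BA10 over B0 panels change with the limit, while in the BA10 over A0 panel both symbols nearly coincide, with Adam1a, Adam29 and Adam24 at log2 ratios of -2.62 to -2.29 in both.

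Set against untreated testis, BA10 was close to A0 for the spermatocyte-side members and far below it for the others. Adam2 was higher in BA10, with a ratio of 1.39 (1.37 to 1.42), as were Adam18 at 1.31, Adam30 at 1.24 and Adam32 at 1.11, of which Adam30 and Adam32 fell on the lower side relative to the median of all genes, a log2 ratio of 0.36. SPC-like cells made up 38.9% of A0 and 76.4% of BA10. Adam5 and Adam3 were lower, at 0.881 and 0.838. Adam1a had a ratio of 0.166 (0.158 to 0.174), Adam24 of 0.167 (0.155 to 0.179) and Adam29 of 0.204 (0.191 to 0.218). These 3 of 9 were at least 2-fold lower, where 19.5% of genes were lower and 17.4% were higher, and with the UMI limit they were again 3 of 9, where 19.5% of genes were. Summed, the 6 spermatocyte-side members had 2047 CPM in A0 and 2049 in BA10, and the 3 spermatid-side members had 227 and 39.9. Per Adam2 UMI there were 0.555 of Adam1a in A0 (0.545 to 0.565) and 0.0662 in BA10 (0.0631 to 0.0694), and for Adam1b the values were 0.558 and 0.442.

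The few spermatid-side UMIs of BA10 were concentrated in 1 cluster. Cluster 19, with 379 cells or 10% of BA10, held 72.6% of its Adam29 UMIs, 55.8% of those of Adam1a and 53.1% of those of Adam24, but 7.81% of those of Adam5. It was called SPC-like, but its profile over 7398 genes without the ADAM family was most like cluster 5 of A0, which was ST-like (Pearson r of 0.963). Its Adam29 level was 96 CPM and that of A0 cluster 5 was 99.5, a ratio of 0.964 (0.882 to 1.05). Adam1a stood at 135 and 201, a ratio of 0.673 (0.627 to 0.723), and Adam24 at 54.3 and 108, a ratio of 0.504 (0.451 to 0.561). Of the spermatocyte-side members, Adam2 (0.741), Adam5 (0.766), Adam3 (0.836) and Adam32 (0.868) were below A0 cluster 5 beyond counting error, and Adam18 and Adam30 had ratios of 0.978 and 0.975 with intervals that included 1.

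In the other 3 SPC-like clusters of BA10 as well, spermatocyte-side levels were below those of the A0 clusters they resembled most. Cluster 17, the largest with 1431 cells, was most like A0 cluster 0, with 313 CPM of Adam2 against 394 (ratio 0.795) and 654 of Adam5 against 827 (ratio 0.791). Adam3, Adam18, Adam30 and Adam32 had ratios there from 0.878 to 0.927. In cluster 20, matched to A0 cluster 3, the ratios of the 6 ran from 0.688 for Adam30 to 0.861 for Adam32. Cluster 21, matched to A0 cluster 4, was lowest, and Adam3 had 71.6 CPM against 221 there, a ratio of 0.324 (0.287 to 0.365), while Adam2 had 283 against 361, a ratio of 0.784. In the B0 cells of cluster 21 these genes had 12.2 and 121 CPM. The 3 spermatid-side members, low in these clusters, were further below. Their ratios were 0.359 to 0.754 in cluster 17, 0.174 to 0.306 in cluster 20 and 0.0916 to 0.251 in cluster 21. Few UMIs lay behind the last 2 ranges. For Adam1a, Adam24 and Adam29 there were 29, 17 and 16 in cluster 20 and 15, 2 and 4 in cluster 21. The interval of Adam24 in cluster 21 was 0.0108 to 0.35. In unnamed cluster 13 of BA10, matched to A0 cluster 0, these 3 were instead above the match. Their ratios there were 2.74 for Adam1a, 2.14 for Adam24 and 4.38 for Adam29. The share of all genes below the matched A0 cluster was not counted, so the lower levels cannot be called particular to these genes. The matches were chosen after the clusters were seen. Over the SPC-like class as a whole the ratios of BA10 to A0 lay between 0.791 for Adam5 and 0.925 for Adam18 among the 6. Clusters 17, 20, 19 and 21 held most of that class in BA10 and clusters 0, 9, 4, 3 and 1 in A0.

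**Figure D4:**
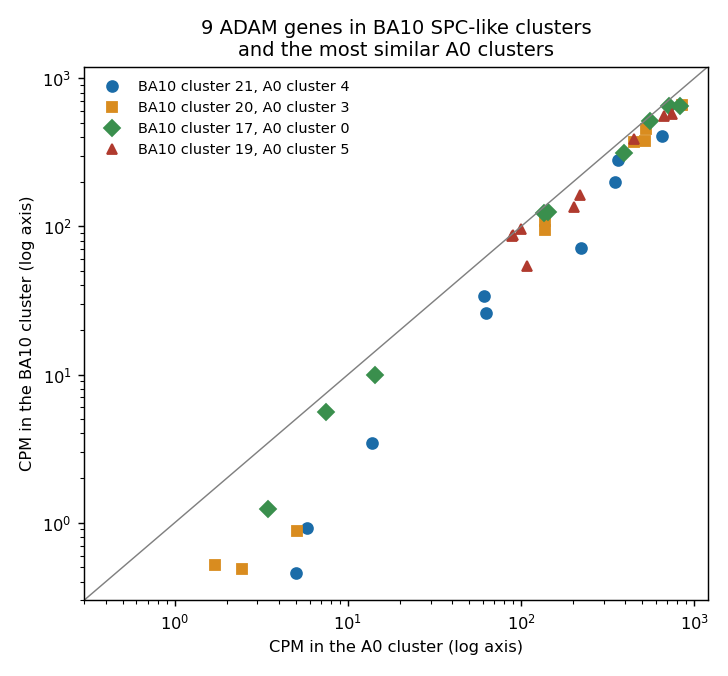
CPM of the 9 genes (log axes) in the 4 SPC-like clusters of BA10 against the A0 cluster with the most similar profile. The line marks equal levels. In cluster 19 Adam29 reaches its level in A0 cluster 5, while Adam1a (135 against 201) and Adam24 (54.3 against 108) stay below, and points far below the line are low genes and the early cluster 21.

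Other genes of the family and pathway were taken from lists, and the shares of all genes past 2-fold are those given above for each comparison, where one was given. Of 9 other testis-enriched ADAM genes in the table, 9 were at least 2-fold lower in B0 than in A0 and 8 were at least 2-fold lower in BA10 than in A0. With the limit of 9013 UMIs the count for B0 was 3 of 9 and that for BA10 was again 8. The exception in BA10 was Adam1b, with 123 and 124 CPM in A0 and A10, 135 in BA10 and 48.4 in B0. The same 8 were at least 2-fold higher in ST-like than in SPC-like cells of A0, where 23.4% of all genes were, and Adam1b was at least 2-fold higher in SPC-like cells, where 42.5% were. Adam20, Adam26b and Adam25 had 42.2, 40.6 and 37.3 CPM in A0 and 14.8, 13.8 and 10.1 in BA10.

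Genes listed for gamete fusion and egg contact were higher in ST-like cells. Of the 6 that reached 5 CPM, 6 were at least 2-fold lower in B0 than in A0, 6 were at least 2-fold lower in BA10 than in A0, and 6 were at least 2-fold higher in ST-like than in SPC-like cells of A0, where 23.4% of all genes were. With the UMI limit 5 of 6 were lower in B0. Izumo1, whose product binds the egg receptor JUNO, had 103, 90.1, 11.8 and 18.1 CPM in A0, A10, B0 and BA10. Zp3r, encoding an acrosome matrix protein, had 107, 99.9, 16.2 and 26.8, and Spam1, encoding a sperm hyaluronidase, had 80, 82.2, 16.2 and 18.8. Spaca6, needed for sperm to fuse with the egg, had 46.7, 40.1, 21.6 and 10.7, and over all cells was the only 1 of the 6 at least 2-fold lower in BA10 than in B0. With the UMI limit 2 of 6 were, and the median log2 ratio of BA10 over B0 turned from 0.65 to -0.96.

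Genes listed for the folding and delivery of ADAM3, general chaperones among them, were mixed. Of 12 tested between B0 and A0, 6 were at least 2-fold lower and 3 at least 2-fold higher, and of 13 tested between BA10 and A0, 3 were lower and 3 higher. Of the higher genes Tpst2, named after its values were seen, had 2.4 CPM in A0, 23.5 in B0 and 7.95 in BA10, and so reached 5 CPM on average only through the library in which it was high. With the UMI limit the counts between B0 and A0 were 3 lower and 2 higher of 14, and the median log2 ratio turned from -0.46 to 0.34. No share of all genes at least 2-fold higher is given for that limit, so the 2 higher genes have no background. Cmtm2a had 1469 CPM in A0, 549 in B0 and 2111 in BA10, and its neighbour Cmtm2b had 1110, 449 and 1423. Clgn, the germ cell chaperone calmegin, had 622, 274 and 583. Calr, the general chaperone calreticulin, went the other way in B0, at 253, 499 and 398 CPM.

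ADAM genes of broad expression were low in the libraries without busulfan. The 11 in the table had at most 2.07 CPM in A0 and between 0.948 and 70.3 in B0. Adam10, the widely expressed sheddase, had 0.325 CPM in A0, 70.3 in B0 and 1.93 in BA10, and Adam23 had 0.0796, 31.8 and 1.22. Adam8 had 0.113, 30.4 and 1.79 and Adam15 had 1.28, 18.5 and 2.29. Adam11 and Adam22 were level between A0 and B0, at 2.07 and 2.09 CPM and at 1.27 and 1.26, and these 2 genes were chosen after their values were seen. No count of genes past 2-fold is given for this list, since those that reached 5 CPM on average did so only through B0.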

How the data were processed

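Testis cells of ICR mice were profiled by 10x 3′ single-cell RNA sequencing (kit version 2), with cells of several mice in each library. Per the labels and the study's methods, the authors ran Cell Ranger 2.2.0 against mm10 and normalized in Seurat after filters on genes and cells. The deposited table holds natural log values, ln(1 + UMIs per 10000 UMIs of the cell), so exponentiation and scaling gave back whole UMIs for 100% of values above 0 within a tolerance of 0.001. No mitochondrial gene is in the table.

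UMIs were summed per library, class or cluster and given as CPM with exact Poisson intervals, shares of cells or UMIs with exact Clopper-Pearson intervals, and ratios of CPM with exact conditional binomial intervals. All cover counting error only. No test was made between groups of 1 library. A gene counted as past 2-fold when its ratio was at least 2 or at most its inverse and its mean CPM over both libraries was at least 5. Cells were clustered in scanpy 1.11.5 (2000 variable genes without the ADAM family, 30 principal components, 15 neighbours, Leiden resolution 1) into 25 clusters. Doublets were called with Scrublet at an expected 6%, which marked 813, 931, 4 and 69 cells of A0, A10, B0 and BA10, and kept in the main values. Alternatives were cells of at least 9013 UMIs, a mean over cells, added CPM, scaling to the median of all genes, other clusterings and removal of called doublets. Clusters were named from fixed marker lists. Cluster 12 was left unnamed because the spermatogonium marker Stra8, and no spermatocyte marker, was among its leading genes. Clusters 13 and 15 were left unnamed by a rule added after the data were seen, because their leading genes went against the name. Classes or clusters under 50 cells in a library were not used for levels, except that the 44 SPC-like cells of B0 outside cluster 21 were summed. The functions for intervals and calls were tested on simulated data.

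Named genes were the 9 members, the 3 genes most like each member across A0 germ cell clusters, and at most 4 genes a list, those of highest mean CPM, with Adam11, Adam22 and Tpst2 named besides. Matches of BA10 clusters to A0 clusters were added after the data were seen. The members and lists were chosen with earlier results of these data known. Positions, exons and coding bases come from GENCODE M21. The list of ADAM3 factors held 16 names, of which 14 are in the table. Pdilt was left out of it by a misspelling.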

Additional observations from a re-analysis of the deposited data

Results flagged for a closer look

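For 7 of the 9 genes the A10 library was below A0 and the BA10 library above B0, each beyond counting error. The share of all genes with both differences was not counted, so the pattern cannot be called particular to these genes. The difference between the 2 log2 ratios (BA10 over B0 minus A10 over A0) was 2.40 for Adam5, 1.97 for Adam2, 1.96 for Adam3 and 1.91 for Adam32. It was 0.93 for Adam24, 0.71 for Adam29 and 0.70 for Adam1a. With 1 library per group this difference was not tested, and for Adam24, Adam29 and Adam1a the BA10 over B0 ratio turned below 1 when only cells of at least 9013 UMIs were kept. With that limit the intervals of the A10 over A0 ratio also included 1 for Adam2 (0.973 to 1.01) and Adam29 (0.944 to 1.01).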

How the results depend on the processing

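Without a replicate library no spread between mice was measured. Levels of whole libraries move with the cells that entered them, and B0 was the shallowest library. The median log2 ratio of the 9 genes for B0 over A0 was -2.07. It was -3.18 as a mean over cells, -1.91 with 10 CPM added, -0.54 with cells of at least 9013 UMIs and -2.57 relative to the median of all genes, and under that UMI limit 3 instead of 9 genes were at least 2-fold lower. For BA10 over B0 it was 1.84, and it was 2.92, 1.69, 0.31 and 2.23 under the same settings in the same order, with 9, 6, 0 and 8 genes at least 2-fold higher instead of 6. Shares of all genes past 2-fold between libraries were computed for all cells and for the UMI limit only, so the other counts have no background. For BA10 over A0 the median of the 9 genes was -0.18 and became -0.54 relative to the median of all genes. In SPC-like cells the median for BA10 over B0 was 2.03, and it was 1.44 at resolution 0.5, 1.80 at resolution 2 and 1.70 with 1000 variable genes.

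Single genes turned direction as follows. With the UMI limit Adam2 was at 0.026 for B0 over A0, and for BA10 over B0 Adam1a was at -1.22, Adam24 at -0.99 and Adam29 at -1.05. Relative to the median of all genes, Adam30 was at -0.042 and Adam32 at -0.20 for BA10 over A0, and Adam30 for A10 over A0 went from -0.0066 to 0.020. In SPC-like cells Adam29 for BA10 over A0, at 0.26, was at -0.78 at resolution 0.5, -0.27 at resolution 2, -2.35 with 1000 variable genes and -0.32 without called doublets. The cause was not tested. No paired analysis was possible because each group is 1 library and no test was made.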
